A study of Saccharomyces cerevisiae with 9 samples.

Results

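The H2B K123R strain of budding yeast was compared with wild type on 2 Agilent arrays, out of 9 in the series, and is described here over all 6256 genes on the array. Histone H2B packs DNA together with H2A, H3 and H4. The enzyme Rad6, with its partner Bre1, attaches ubiquitin to lysine K123 of H2B on genes that are being transcribed, and the Paf1 complex is needed for this. The mark is required for methylation of histone H3 by Set1 and Dot1, and Ubp8, a subunit of the coactivator SAGA, takes it off again. Arginine in place of the lysine cannot carry ubiquitin.

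The mutant, CY1272, carries Htb1_K123R and lacks HTB2, so that all its H2B comes from HTB1 with the substitution, and the wild type was BY4742. Array 1 held K123R RNA in Cy5 and array 2 held it in Cy3, and every ratio is given as K123R over wild type. The other arrays of the series compared the double mutant CY1383 (Htb1_K123R, without HTB2 and UBP8) and the ubp8 deletion strain BY10809 with BY4742 on 2 arrays each. On 3 more arrays CY1272 was compared with the htb2 deletion strain BY13026, so that both strains there lack HTB2. The K123R strain against wild type therefore differs in HTB2 as well as in the lysine, and the effects of these cannot be told apart in that comparison. Replicate arrays are biological according to the design text, but whether they came from separate cultures and how the cells were grown is not given in the sources used here. Nor is it given whether a strain was more than 1 isolate.

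Each array against wild type had 10807 spots. On the 2 K123R arrays the median signal was 37.8 and 42.6 times the background in green and 54.0 and 61.1 times in red. More than 99% of spots were well above background and 2.15% and 2.24% were saturated. The 2 arrays differed by a median of 0.18 in the dimmest 5th of genes and 0.12 in the middle 5th. The number of arrays also limits the precision. Values are log2 ratios, with the standard error of limma for the mean of 2 arrays, and a gene was called when its adjusted p was under 0.05. The 2 arrays correlated at r = 0.72 (Spearman rho 0.57), over genes that are not independent of each other.

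The targeted gene came first as a check of the labels. HTB2 read −3.68 on array 1 and −3.87 on array 2, with normalised signals of 1040 and 846 in K123R against 13313 and 12403 in wild type. It fell by 3.78 ± 0.13 on the log2 scale, or 13.7-fold (limma, adjusted p = 0.000913), and its probe was still well above background in K123R. HTB1, the H2B gene that the strain retains, read 0.42 and −0.14, so its arrays differed in sign. The deletion removes HTB2 message, whereas the K123R substitution itself leaves no trace that an expression array could read. The title of array 1 names htb1 as the deleted gene where the source label names htb2, and HTB2 was low on both arrays.

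A pair of marker genes also separated the strains, and one of them went against the labels. HIS3, for histidine synthesis, read 3.87 and 2.47, with K123R signals of 1619 and 1365 and wild-type signals of 111 and 246 (3.17 ± 0.37, adjusted p = 0.00685). The HIS3 ratio was 2.86 in the double mutant and 3.63 with the htb2 deletion strain as reference. LEU2, for leucine synthesis, read 4.12 and 3.27, with K123R signals of 3003 and 3189 and wild-type signals of 173 and 330 (3.70 ± 0.20, adjusted p = 0.00237). In the 3 comparisons with the htb2 deletion strain, RNA carrying the same strain name had LEU2 signals of 149, 166 and 95.9, close to the 217, 151 and 141 of the reference. The RNA labelled CY1272 was thus high in LEU2 on the arrays against wild type and low on the others. In the double mutant LEU2 read −0.16 and 0.06. URA3 (0.01) and LYS2 (−0.09) did not pass, and MET17, of sulfur amino acid synthesis, rose by 0.54 ± 0.06 (adjusted p = 0.00732). The part of HIS3 and LEU2 in other genes' changes was not tested.

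Most changes in K123R were small, and increases were as common as decreases. Of 6250 genes tested, 686 rose (11.0%) and 632 fell (10.1%), together 21.1%. Only 39 rose (0.624%) and 9 fell (0.144%) by at least 2-fold. Another 92 rose and 81 fell by 1.5-fold to 2-fold, which leaves 555 increases and 542 decreases below 1.5-fold. The median absolute log2 ratio was 0.14 over all genes and 0.38 over the called ones, and the smallest that was called was 0.19. All 1318 called genes had the same sign on both arrays, as did 69.0% of all genes. Without reference to significance, 29 genes were at least 2-fold higher on both arrays and 6 at least 2-fold lower.

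The number of calls depended on the model more than the ratios did. Array numbers stand for dye orientation, and with the replicate block, that is a dye term for each gene, 4137 genes were called (66.2%), including all 1318. With array 1 left out 34 genes were called, and with array 2 left out 56. With either array of the ubp8 strain left out, which lends its spread to the test, 822 were called.

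**Figure D1:**
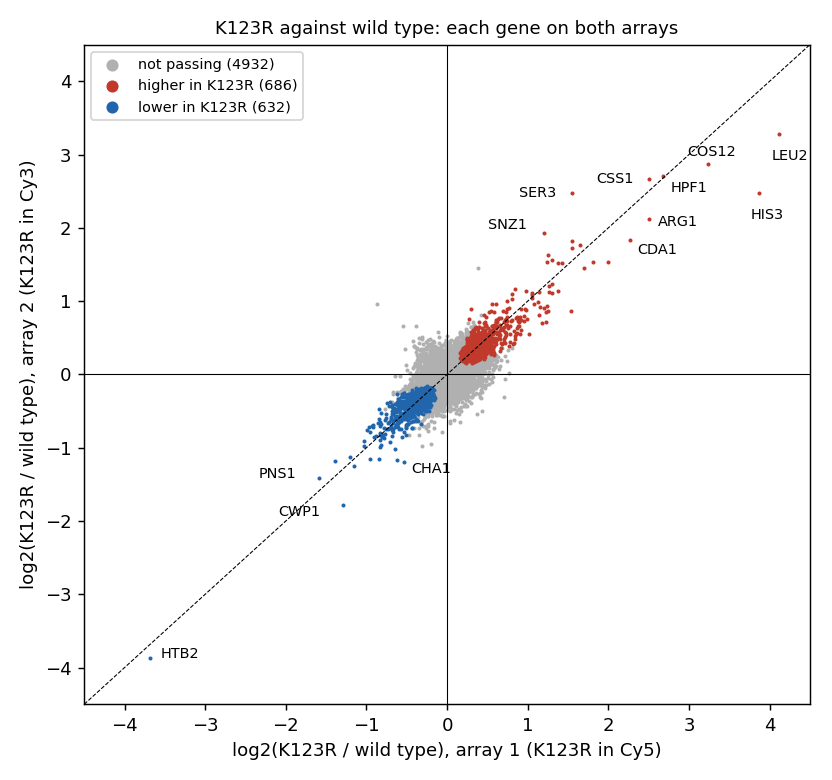
Each point is one gene, with its log2 ratio of K123R over wild type on array 1 (horizontal axis, K123R in Cy5) and array 2 (vertical axis, K123R in Cy3); red marks the 686 genes called higher, blue the 632 called lower and grey the rest. Points far from the origin lie near the dashed line of equal ratios, with LEU2 and HIS3 higher on array 1, SER3 and SNZ1 higher on array 2, and HTB2 alone at the lower left.

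Beside the marker genes, the strongest increase was in COS12, a member of the COS family of genes near chromosome ends, whose protein takes part in sorting membrane proteins for breakdown. COS12 read 3.23 and 2.87, with K123R signals of 1306 and 1664 and wild-type signals of 139 and 228 (3.05 ± 0.10, adjusted p = 0.000913). The signals of the strains did not overlap. It read 2.98 in the double mutant, 1.18 in ubp8 and 2.53 where the htb2 deletion strain was the reference. Its neighbour on the chromosome, YGL262W, read 1.70 and 1.45 at low signals, 267 and 270 in K123R against 82.1 and 99.1 in wild type. The rest of the COS family did not follow: of 11 members, 1 rose and 3 fell, with a median of −0.15. By comparison, 11.0% of all genes rose and 10.1% fell. COS9 fell by 0.56 ± 0.10, COS6 by 0.37 ± 0.07 and COS4 by 0.19 ± 0.05, the last with an adjusted p of 0.0488. COS genes are close in sequence and cross-hybridisation between them was not tested.

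Some genes of the cell surface were among the highest and the lowest. HPF1, a mannoprotein of the cell wall, read 2.67 and 2.71, with K123R signals of 26277 and 35067 and wild-type signals of 4118 and 5375 (2.69 ± 0.08, adjusted p = 0.000913). CSS1, its sequence relative, read 2.50 and 2.66 (2.58 ± 0.14), and CDA1, a chitin deacetylase of the spore wall, 2.26 and 1.84 (2.05 ± 0.13). A near-identical pair of short reading frames, YAR068W and YHR214W-A, read 1.68 ± 0.10 and 1.64 ± 0.08, and their probes may report each other. CWP1, another mannoprotein, went the other way: it read −1.29 and −1.78, with signals of 6081 and 4138 in K123R against 14904 and 14234 in wild type (−1.54 ± 0.21, adjusted p = 0.00932). PNS1, which encodes a membrane protein, read −1.59 and −1.41 (−1.50 ± 0.15), the next lowest value after CWP1. Of 35 cell wall mannoprotein and related genes, 6 rose, 4 fell and 25 did not pass, and the median was −0.03. These shares, 17.1% and 11.4%, are near the 11.0% and 10.1% of all genes. The falls beside CWP1 were in SAG1, the alpha-agglutinin (−0.76 ± 0.05), SPI1 (−0.66 ± 0.08) and UTR2, a chitin transglycosylase (−0.36 ± 0.06). FLO10, a flocculin, rose by 0.41 ± 0.05 and PIR3 by 0.37 ± 0.07.

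**Figure D2:**
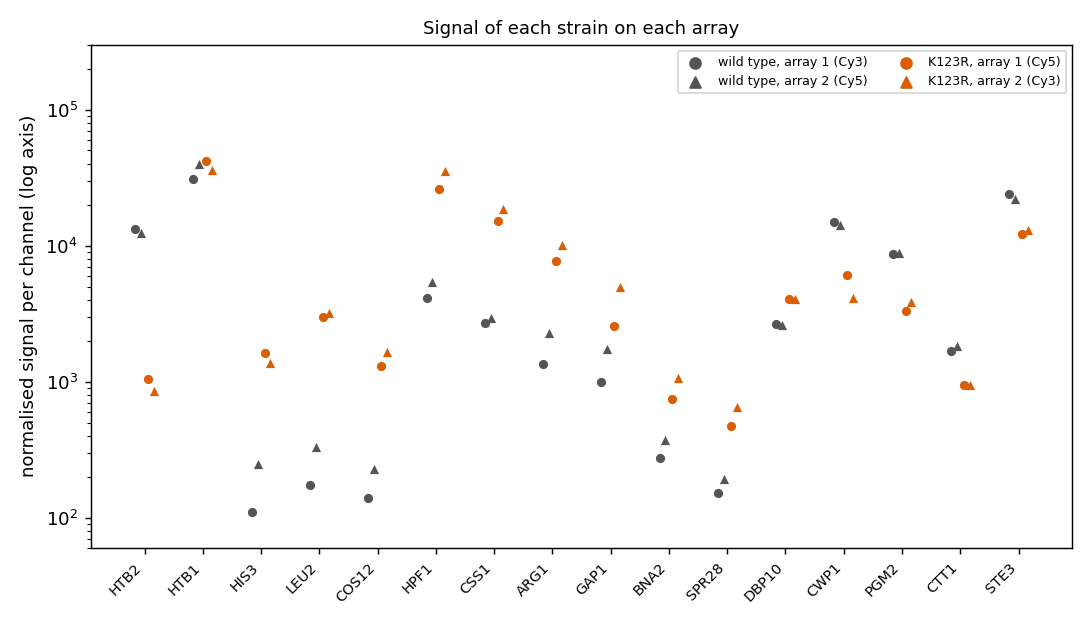
Normalised signal of each strain on each array (log axis) for 16 genes described in the text; grey is wild type, orange K123R, circles array 1 and triangles array 2, so that each gene has 4 points. HTB2 is at 12403 or more in wild type and 1040 or less in K123R, LEU2 and HIS3 are at 330 or less in wild type and 1365 or more in K123R, and for HTB1 the points of the strains overlap.

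Most genes for ribosome assembly rose, by small amounts. They encode the helicases, methyltransferases and assembly factors that act on ribosomal RNA in the nucleolus. Of 105 tested, 63 rose and 0 fell, the median was 0.37, and all 105 were above 0 as normalised here, whereas the median of all genes was −0.00. Among all genes 11.0% rose and 10.1% fell. DBP10, a helicase of the large subunit, read 0.61 and 0.63 (0.62 ± 0.05, adjusted p = 0.00353), the highest of the list. SPB1, a methyltransferase of the large subunit, read 0.55 and 0.58 (0.57 ± 0.05). NOP14, of the small subunit, read 0.64 and 0.51 (0.57 ± 0.06), and NOP2, a methyltransferase, 0.46 and 0.70 (0.58 ± 0.11). The lowest member was at 0.04. The list median was 0.39 in the double mutant, 0.19 in ubp8 and 0.40 with the htb2 deletion strain as reference, where 48 rose and 0 fell, against 14.5% and 15.9% of all genes there.

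RNA polymerases I and III transcribe ribosomal and transfer RNA. Of 26 of their subunits and factors 10 rose, 1 fell and 15 did not pass, with a median of 0.29, and 21 were above 0. RET1, the second largest subunit of polymerase III, read 0.39 and 0.64 (0.51 ± 0.13), and RPA135, of polymerase I, read 0.51 and 0.47 (0.49 ± 0.05, adjusted p = 0.00529). RRN11, of the polymerase I core factor, read 0.43 and 0.55. RRN5, of the upstream factor, fell by 0.29 ± 0.06. Of 138 cytosolic ribosomal proteins tested 2 rose, RPP1 (0.31 ± 0.07, a subunit of RNase P and MRP that had been placed on the list) and RPL18B (0.25 ± 0.06), 0 fell, and the median was −0.02. Many probes of this group were bright, and those of RPL4A and RPL32 were saturated in both strains on both arrays, so that their ratios near 0 give no level. Against the htb2 deletion strain 36 of the cytosolic ribosomal proteins fell and 1 rose, with a median of −0.19. Of 67 mitochondrial ribosomal proteins 6 rose and 6 fell (9.0% each), near the shares of all genes, of which 11.0% rose and 10.1% fell. With the htb2 deletion strain as reference 2 of them rose and 22 fell. There 14.5% of all genes rose and 15.9% fell.

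Arginine synthesis gave the largest rise of the biosynthetic lists. Of 10 genes 7 rose and 0 fell, where 11.0% of all genes rose and 10.1% fell, and the list median was 0.68. ARG1, argininosuccinate synthase, read 2.51 and 2.13, with K123R signals of 7665 and 10022 and wild-type signals of 1346 and 2293 (2.32 ± 0.11, adjusted p = 0.00293). ARG3, ornithine carbamoyltransferase, read 1.27 and 1.21 (1.24 ± 0.06). ARG7 rose by 0.83 ± 0.06, ARG5,6 by 0.74 ± 0.05 and ARG4 by 0.63 ± 0.05. The members that did not pass were ARG2 (0.12), ARG8 (0.09) and the mitochondrial ornithine transporter ORT1 (−0.04). In ubp8 ARG1 read −0.11, and it was higher in K123R than in ubp8 by the contrast below.

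Of 24 genes under nitrogen catabolite repression 8 rose (33.3%) and 2 fell (8.3%), where 11.0% and 10.1% of all genes did. GAP1, the general amino acid permease, read 1.37 and 1.52 (1.44 ± 0.10, adjusted p = 0.00293). DUR1,2, urea amidolyase, read 0.85 and 1.16 (1.00 ± 0.11), DUR3, the urea transporter, 0.52 and 0.86, and CAR1, arginase, 0.67 and 0.76 (0.71 ± 0.06). CAR2, which follows CAR1 in arginine breakdown, fell: it read −0.85 and −0.61 (−0.73 ± 0.08, adjusted p = 0.00685).

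Of 15 genes of aromatic amino acid synthesis 6 rose and 1 fell. TRP5, tryptophan synthase, read 0.84 and 0.52 (0.68 ± 0.09), TRP2 0.55 and 0.45 (0.50 ± 0.06) and ARO3 0.49 and 0.44 (0.47 ± 0.05), while TRP1 fell by 0.26 ± 0.06. SER3, the first enzyme of serine synthesis, read 1.54 and 2.48 (2.01 ± 0.24, adjusted p = 0.00745). Its arrays differed more than those of most strong genes, but even the lower was above 2-fold. CHA1, which breaks serine and threonine down, read −0.54 and −1.20 (−0.87 ± 0.18, adjusted p = 0.0295), and the other 10 genes of serine and glycine metabolism did not pass. In histidine synthesis, 1 of 6 genes passed, HIS2 (−0.37 ± 0.08), and in lysine synthesis 1 of 8, LYS9 (−0.56 ± 0.05). Of 30 methionine and sulfate genes 4 rose, MET17 highest, and 3 fell. Against wild type, the counts for serine and glycine, histidine, lysine and methionine are near those over all genes, of which 11.0% rose and 10.1% fell.

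The genes of leucine and branched-chain amino acid synthesis moved in opposite directions with the 2 references. The list does not include LEU2. Against wild type 5 of 11 fell and 1 rose, where 10.1% and 11.0% of all genes did, and the list median was −0.20. LEU1, isopropylmalate isomerase, read −0.79 and −0.82 (−0.81 ± 0.08, adjusted p = 0.00529). OAC1, a mitochondrial carrier that exports isopropylmalate, read −0.97 and −0.72 (−0.84 ± 0.13). BAT1, the mitochondrial branched-chain aminotransferase, read −0.46 and −0.59 (−0.52 ± 0.07), ILV5 fell by 0.43 ± 0.06 and ILV3 by 0.39 ± 0.09. ILV1, threonine deaminase, rose by 0.56 ± 0.11.

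Against the htb2 deletion strain, where LEU2 was low in both strains, 8 of these 11 genes rose, 0 fell and the median was 0.48. There LEU1 read 0.72, BAT1 0.64, ILV5 0.40 and ILV3 0.31. In the double mutant, whose LEU2 was low as in wild type, the list median was −0.13, and LEU1 read −0.28, OAC1 −0.33 and BAT1 −0.13. LEU2 itself read 3.70 against wild type, −0.05 in the double mutant and −0.21 against the htb2 deletion strain. The last 2 comparisons differ in both mutant and reference, and the part of LEU2 in these genes' values was not tested. The rise against the htb2 deletion strain was not particular to this list. There 18 of 30 methionine and sulfate genes rose (median 0.40), as did 7 of 15 aromatic amino acid genes (0.46). Of serine and glycine genes 7 of 12 rose there (0.34), of histidine genes 2 of 6 and of lysine genes 1 of 8. Of all genes 14.5% rose there.

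**Figure D3:**
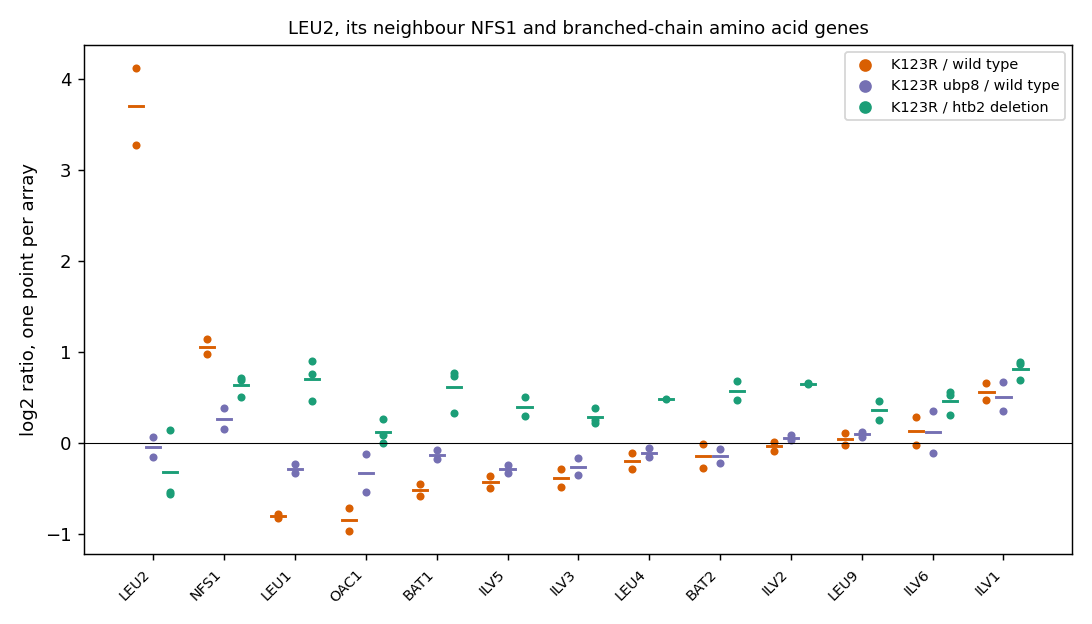
Log2 ratio on every array for LEU2, its neighbour NFS1 and 11 genes of branched-chain amino acid synthesis: orange for K123R over wild type, violet for the double mutant over wild type, green for K123R over the htb2 deletion strain, with dashes at the plain means of the arrays. LEU2 is at 4.12 and 3.27 in orange and near 0 otherwise, and LEU1, OAC1, BAT1, ILV5 and ILV3 are lower in orange than in green.

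Of 22 genes of thiamine and vitamin B6 synthesis 10 rose, 0 fell and 12 did not pass, with a median of 0.18. Among all genes 11.0% rose and 10.1% fell. With the replicate block 13 of the 22 were called higher and 7 lower, where 33.5% and 32.7% of all genes were. SNZ1, of vitamin B6 synthesis, read 1.21 and 1.94, with K123R signals of 2831 and 7296 and wild-type signals of 1228 and 1907 (1.57 ± 0.18, adjusted p = 0.00685). SNO1, its divergent partner, read 0.38 and 1.45 and did not pass (adjusted p = 0.0984), one of the 5 genes whose arrays differed most. THI11 rose by 0.94 ± 0.14, THI5 by 0.83 ± 0.13, THI12 by 0.82 ± 0.08 and THI13 by 0.64 ± 0.10. These last genes are near-identical copies, as are SNZ2 (0.82 ± 0.07) and SNZ3 (0.71 ± 0.06), and may not be separate observations. BNA2, which opens the path from tryptophan to NAD, read 1.42 and 1.52 (1.47 ± 0.07, adjusted p = 0.00226), and BNA4, a later step, 1.24 and 1.54 (1.39 ± 0.09). The following members of that pathway were looked up after these values were seen. TNA1, the nicotinic acid permease, rose by 0.46 ± 0.07. BNA5 fell by 0.52 ± 0.08, BNA7 by 0.20 ± 0.05 and PNC1, the nicotinamidase, by 0.71 ± 0.11. BNA1 (−0.03), BNA3 (−0.04) and BNA6 (−0.13) did not pass.

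Part of the sporulation genes rose. Of 38 genes of meiosis and sporulation 13 rose (34.2%) and 1 fell (2.6%), with a median of 0.18. Among all genes 11.0% rose and 10.1% fell, and the difference from these shares was not tested. SPR28, a septin of the spore membrane, read 1.65 and 1.76, with K123R signals of 471 and 653 and wild-type signals of 151 and 193 (1.70 ± 0.10, adjusted p = 0.00249). REC8, the meiotic cohesin, read 0.99 and 0.75 (0.87 ± 0.15), GAS4 0.91 and 0.78 (0.84 ± 0.07) and SPR3, another septin, 0.89 and 0.72 (0.81 ± 0.11). SPR6 fell by 0.66 ± 0.08. GAS4 read 0.64, REC8 0.56 and SPR3 0.52 in ubp8 as well, whereas SPR28 read 0.14 there.

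In the general stress response 19 of 43 genes fell, 1 rose and 23 did not pass, where 10.1% of all genes fell. The median was −0.42, which was −0.30 on array 1 and −0.55 on array 2. PGM2, phosphoglucomutase, read −1.38 and −1.18, with signals of 3321 and 3868 in K123R against 8672 and 8776 in wild type (−1.28 ± 0.10, adjusted p = 0.00332). GSY1, a glycogen synthase, read −1.03 and −0.97 (fell by 1.00 ± 0.12), and CTT1, the cytosolic catalase, −0.82 and −0.97 (−0.89 ± 0.06). TSL1, of trehalose synthesis, fell by 0.82 ± 0.09, GPD1 and GPP2, of glycerol synthesis, by 0.70 ± 0.05 and 0.81 ± 0.05, and GLK1, glucokinase, by 0.75 ± 0.06. UGA2, of 4-aminobutyrate use, was the member that rose (0.30 ± 0.05). The list median was −0.37 in the double mutant and −0.23 in ubp8. Against the htb2 deletion strain it was −0.53, where 26 fell and 1 rose, and 15.9% of all genes fell and 14.5% rose there. Chaperone genes of the Hsf1 type did not share this: of 23 tested 3 fell, SSE2 by 0.43 ± 0.09, HCH1 by 0.38 ± 0.07 and SIS1 by 0.31 ± 0.07, and the median was 0.00. BDH2, a dehydrogenase, read −1.16 and −1.25 (−1.20 ± 0.06), and RGI1, of energy metabolism, −0.84 and −0.99 (−0.91 ± 0.06).

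Phosphate genes fell in part. Of 20 genes induced by phosphate starvation 8 fell (40%) and 0 rose, with a median of −0.20. Among all genes 10.1% fell and 11.0% rose. PHM8, a nucleotidase, read −0.79 and −0.87 (−0.83 ± 0.05, adjusted p = 0.00293), SPL2 −0.92 and −0.69 (−0.81 ± 0.08), and VTC2 and VTC3, of the polyphosphate polymerase, fell by 0.61 ± 0.06 and 0.61 ± 0.05. Against the htb2 deletion strain VTC2 read −0.13 and VTC3 −0.03, and the list had 2 rising and 2 falling. There 14.5% of all genes rose and 15.9% fell. PHO11 and PHO12 (−0.35 ± 0.08 and −0.36 ± 0.07) are near-identical copies.

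Lists of respiration and metal uptake are set beside all genes, of which 11.0% rose and 10.1% fell. Of 38 genes of oxidative phosphorylation 11 rose, among them ATP16 (0.54 ± 0.05), ATP3 (0.47 ± 0.09) and ATP14 (0.43 ± 0.05) of the ATP synthase, and COX5B, the subunit used at low oxygen, fell by 0.67 ± 0.06. Against the htb2 deletion strain 2 members rose and 14 fell, with a median of −0.21 against 0.19 here. There 14.5% of all genes rose and 15.9% fell. Of 25 mitochondrial carriers 4 rose and 3 fell, and these shares, 16% and 12%, are near those of all genes. The lowest, DIC1, for dicarboxylates, read −0.95 and −1.15 (−1.05 ± 0.07, adjusted p = 0.00302) and the highest, MIR1, for phosphate, 0.67 and 0.64 (0.65 ± 0.05). Of 21 genes of the peroxisome and fatty acid oxidation 5 rose and 3 fell. The highest, POT1, the peroxisomal thiolase, read 1.20 and 0.90 (1.05 ± 0.09). The lowest, CIT2, the peroxisomal citrate synthase, read −0.84 and −0.89 (−0.86 ± 0.06). Of 27 iron genes 5 fell and 0 rose, ARN2 lowest (−0.65 ± 0.06). Of 11 zinc-regulated genes 3 rose, with ZRT1, the high-affinity transporter, at 0.95 ± 0.12, and 3 fell, with ZRT2, the low-affinity one, at −0.49 ± 0.06.

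**Figure D4:**
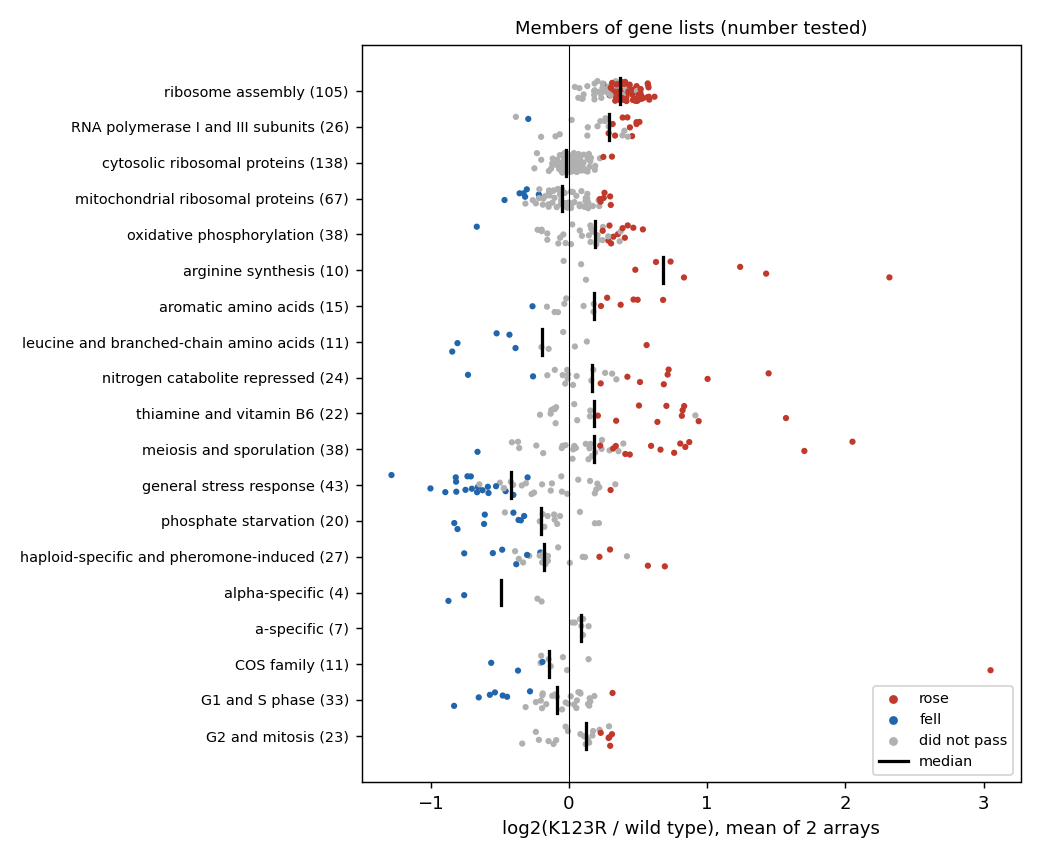
Log2 ratio of K123R over wild type, as the mean of 2 arrays, for each tested member of 19 gene lists; HTB2 and other genes outside these lists are not shown. Red members rose, blue fell and grey did not pass, and black bars are list medians; the bars of ribosome assembly (0.37) and arginine synthesis (0.68) lie to the right of 0 and that of the stress response (−0.42) to the left.

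Genes of cell division and mating moved in subgroups. Of 33 genes of G1 and S phase 7 fell and 1 rose. Among them were DSE1, SCW11, CTS1 and DSE2, which act in the separation of the daughter cell. DSE1 read −0.83 on both arrays (−0.83 ± 0.05, adjusted p = 0.00293), SCW11 −0.76 and −0.55, CTS1, the chitinase, −0.55 and −0.59, and DSE2 −0.52 and −0.44. In ubp8 these read 0.55, 0.31, 0.40 and 0.36. The others that fell were CLN1, a G1 cyclin (−0.54 ± 0.06), RNR1 (−0.45 ± 0.07) and SWI4 (−0.28 ± 0.06). Of 23 genes of G2 and mitosis 5 rose (21.7%), each by 0.23 to 0.31, and 0 fell. Of the G1 and S phase genes 3.0% rose and 21.2% fell. Over all genes 11.0% rose and 10.1% fell, and the differences from these shares were not tested.

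As for mating type, the 4 alpha-specific genes included STE3, the receptor for a-factor, which read −0.99 and −0.75, with signals of 12074 and 13035 in K123R against 23970 and 21972 in wild type (−0.87 ± 0.08, adjusted p = 0.00433), and SAG1 (−0.76 ± 0.05). Neither pheromone gene passed, with MF(ALPHA)1 at −0.23 and MF(ALPHA)2 at −0.20. Of 7 a-specific genes 0 passed by limma, and 0 had an unadjusted p under 0.05. Their signals were low, with STE2, the receptor for alpha-factor, at 160 in K123R and 141 in wild type on array 1. Of 27 haploid-specific and pheromone-induced genes 6 fell (22.2%) and 4 rose (14.8%), where 10.1% and 11.0% of all genes did. SST2, a regulator of the pheromone response, was lowest (−0.76 ± 0.07) and PRM3, of nuclear fusion, highest (0.69 ± 0.10).

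The genes of the H2B ubiquitin pathway and its neighbours changed little. Of 11 genes of H2B ubiquitylation and the Paf1 complex, RAD6 (0.38 ± 0.05, adjusted p = 0.00767), RTF1 (0.31 ± 0.07) and the kinase gene SGV1 (0.25 ± 0.05) rose and 0 fell, and BRE1 read 0.16 and 0.25 without passing (adjusted p = 0.0646). Of 10 genes for H3 methyltransferases and their partners, BRE2 rose by 0.31 ± 0.06 and SWD1 fell by 0.26 ± 0.06. Among 17 SAGA subunits 3 rose, TAF5 (0.39 ± 0.08), SPT7 (0.38 ± 0.05) and TRA1 (0.28 ± 0.05), and 2 fell, SPT3 (−0.38 ± 0.07) and HFI1 (−0.30 ± 0.05). UBP8, present in this strain, read −0.28 and −0.12 and did not pass. Of 10 histone genes HTB2 alone passed, and HTA1 read 0.37 and −0.54, the arrays pointing in opposite directions. With the replicate block, the dye term, 7 of the 10 were called lower and 1 higher, where 32.7% and 33.5% of all genes were. Of 14 silencing factors 1 rose, SAS4 (0.30 ± 0.06). Over all genes 11.0% rose and 10.1% fell without the block. The shares were 10% and 10% for the H3 methyltransferase list and 17.6% and 11.8% for SAGA, near those of all genes. They were 27.3% and 0% for H2B ubiquitylation and the Paf1 complex and 7.1% and 0% for silencing factors. None of these shares was tested against all genes.

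The genes beside the altered loci were read next. NFS1, next to LEU2, read 0.98 and 1.14, with signals of 9696 and 9667 in K123R against 4929 and 4392 in wild type (1.06 ± 0.09, adjusted p = 0.00396), and DCC1 beyond it read −0.02. Close to HIS3, the reading frame YOR203W, which overlaps DED1, read 1.81 and 1.53 (1.67 ± 0.10), MRM1 0.31 ± 0.06 and GEP3 0.44 ± 0.05, but DED1 itself 0.02. Beside HTB1, YDR222W fell by 0.48 ± 0.06 and CRF1 by 0.31 ± 0.07. The neighbours of HTB2 and UBP8 that were read did not pass.

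By gene order along the chromosome arms, shares of calls were counted without a test of their difference. Among the 5 outermost genes of each arm in the RefSeq order, 148 in all, 16.9% rose and 11.5% fell, and 7 rose by at least 2-fold. Genes at ranks 6 to 10 rose in 15.8%, at ranks 11 to 20 in 10.7% and at ranks 21 to 50 in 9.61%. Among genes beyond the outermost 50, 11.6% rose and 10.8% fell. The 5 outermost genes were also dimmer, with a median signal of 1047 against 2527 beyond rank 50. Over the dimmest 5th of all genes 11.0% rose and 6.0% fell, a share of increases like that of all genes, while 21 of the 39 increases of at least 2-fold lay there. Among called genes, HXT14 and YFR057W were not well above background in wild type on either array, so that only bounds can be given, at least 1.86-fold and at least 1.79-fold higher.

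With the double mutant, the question is whether K123R without UBP8 differs from K123R with it. By limma 0 of 6246 genes differed (0%), with 43 at an unadjusted p under 0.05, and the smallest adjusted p was 0.0933, for LEU2 and UBP8. This contrast runs through the wild type on each side. The ratios stand side by side: COS12 read 3.05 in K123R and 2.98 in the double mutant, HPF1 2.69 and 2.39, ARG1 2.32 and 2.09, PGM2 −1.28 and −1.22, CWP1 −1.54 and −1.38, and DBP10 0.62 and 0.63. A p that misses the threshold does not show that the strains are alike.

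With the replicate block 14 genes differed between K123R and the double mutant. LEU2 (3.75 ± 0.23 higher in K123R, adjusted p = 0.00422), UBP8 (2.16 ± 0.12), YOR203W (0.81 ± 0.04), NFS1 (0.79 ± 0.04) and YOR199W (0.60 ± 0.05) were higher in K123R. The other 9 were lower, by 0.34 to 0.60: YIR043C, YEL075C, YER189W, COS8, COS7, YLR463C, YBL109W, YPR202W and OAC1. Of these 9, the first 8 have names that place them far out on a chromosome arm. The share of such names among all genes was not counted. YEL075C and YER189W read nearly alike, −0.44 and −0.45 in K123R. Cross-hybridisation among the 8 was not tested, so they may not be separate observations. YIR043C read 0.31 and 0.22 in K123R and 0.88 and 0.85 in the double mutant.

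Against the ubp8 deletion strain the K123R strain differed in 514 of 6246 genes (8.23%), 229 higher (3.67%) and 285 lower (4.56%). HPF1 was higher in K123R by 3.03, CSS1 by 2.995 and ARG1 by 2.43, after LEU2 and HIS3. Below HTB2 and the reading frame YOL014W (−2.24), the genes lowest against ubp8 were CWP1 (−1.83), CHA1 (−1.76), EEB1 (−1.72), an ethyl ester synthase, and DIC1 (−1.62). CHA1 read −0.87 in K123R and 0.89 in ubp8, EEB1 −0.88 and 0.84, and DIC1 −1.05 and 0.57, so the strains lay on opposite sides of wild type. Of the ribosome assembly genes 4 of 105 were higher in K123R than in ubp8 and 0 lower. With the replicate block 3535 genes differed, and with any one array left out between 4 and 50.

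The comparison with the htb2 deletion strain removes the difference in HTB2, but uses another reference, another array design and a later software version. RNA labelled CY1272 was also low in LEU2 there and high in LEU2 on the arrays against wild type. There 1855 of 6109 genes were called (30.4%), 886 higher (14.5%) and 969 lower (15.9%). Of the 686 genes that rose against wild type 398 also rose there, 58.0% of the first list and 44.9% of the second. Of the 632 that fell 369 also fell, 58.4% and 38.1%. The directions were opposite in 12 genes higher and 7 lower against wild type. HPF1 read 2.75, CSS1 2.83, COS12 2.53, ARG1 2.39, SPR28 1.86, CWP1 −1.64 and PGM2 −1.27 in this comparison, each with the sign it had against wild type. HTB2, absent from both strains, read −0.45 there. Of the 10 histone genes 8 were called lower there and 0 higher, with a median of −0.90. Among them were HTB1 (−0.80, adjusted p = 0.0057), HTA1 (−0.93), HTA2 (−1.55) and HHT1 (−1.34). HTB2 is counted in the 8 and in the median, although neither strain carries it. Its ratio there is not a fall in HTB2 message, and cross-hybridisation of its probe was not tested. The difference between the references was not tested.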

How the data were processed

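Total RNA was amplified, labelled with Cy3 or Cy5 and hybridised to Agilent 2-colour arrays, per the labels' protocols. Spot intensity was deposited as read by Agilent Feature Extraction (a later version, 8.5.1.1, for the 3 arrays against the htb2 deletion strain), per the file headers. Each deposited series value is a log10 ratio and matched the mutant over reference ratio of the software's processed signals to within 5e-10. These values served as an alternative.

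Mean signals and median backgrounds were corrected in limma 3.58.1 (R 4.3.3) by normexp with an offset of 50 and normalised within each array by loess. Control spots and spots marked as non-uniform or as population outliers were left out, saturated spots were kept, and repeated spots were averaged. The 6 arrays against wild type were fitted with a mean per mutant (3 residual degrees of freedom), and p-values were adjusted by Benjamini-Hochberg over all genes tested. A gene needed a signal well above background in one colour on 3 of 6 arrays, or on 2 of the 3 against htb2, which were fitted apart with a dye term. Where that could not be fitted, for 410 genes, the mean alone was used. The 2 K123R arrays share a number with those of the other mutants through dye orientation, and deviations from the strain means correlated at 0.86 to 0.89 across genes, so p-values are approximate.

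Genes named are those of the genotype, the 15 highest and 15 lowest with a symbol, 3 of each with a systematic name only, up to 5 members of each list with 3 or more passing and all members of lists of 12 or fewer, neighbours of the altered genes, and the extremes of the contrasts. The text gives part of them. Members and lists were chosen with earlier results of these data known. Of 6256 systematic names 5756 matched RefSeq R64, which gave symbols and gene order. No build is named in the files, so no coordinates are given. A planned search of promoters for motifs was not run, as no sequence was used here. The pipeline was tested on simulated data.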

Additional observations from a re-analysis of the deposited data

Results flagged for a closer look

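The following genes had opposite signs on every array in the 2 comparisons of K123R and were called in both, and whether the effects differ was not tested. LEU1 read −0.81 against wild type and 0.72 against the htb2 deletion strain. BAT1 read −0.52 and 0.64, ILV5 −0.43 and 0.40, and ILV3 −0.39 and 0.31, all of branched-chain amino acid synthesis. SAM2, an S-adenosylmethionine synthetase, read −0.40 and 0.46, and MET13, a methylenetetrahydrofolate reductase, −0.30 and 0.29. No group had the 4 arrays needed to look for outlying samples.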

How the results depend on the processing

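Array numbers pair the mutants through dye orientation. With the replicate block, 4137 genes were called in K123R against wild type in place of 1318, 14 in place of 0 against the double mutant, and 3535 in place of 514 against ubp8. Leaving out one array at a time gave 34 to 884 genes against wild type, 0 to 1 against the double mutant, 4 to 50 against ubp8 and 504 to 2173 against the htb2 deletion strain, and a fit that leaves a strain with 1 array assumes that it varies like the others. A 2-fold minimum left 48 genes, and median centring in place of loess left 330 against ubp8. The other settings gave 1124 (the K123R arrays fitted alone) to 1317 genes against wild type and 1781 to 2184 against the htb2 deletion strain. No other setting moved a count by more than 1.5 times. All 1318 genes kept their sign under every setting, but for many settings this was given in advance. The genes had the same sign on both K123R arrays, so leaving out either could not change it. The replicate block, the K123R arrays alone, the 2-fold minimum and leaving out other strains' arrays keep the K123R mean. Only settings that alter the signals or the spots used could have changed a sign. The share of calls that were higher was 52.0%, and 76.5% without array 1, 67.9% without array 2 and 81.2% with the 2-fold minimum. Of 284 named genes, 22 changed to not passing with median centring, among them ILV3, ILV5, MET13 and CRF1.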

Other observations

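Genes with the brightest probes, OLI1, RPL4A, RPL32, TEF2 and CDC19, read −0.31 on array 1 and 0.25 on array 2 and were saturated in both strains on both arrays, so these values give no level. TIR3 read −0.55 and 0.67, IPP1 0.70 and −0.31 and CPR1 0.43 and −0.50, and with HIS3 and SNO1 these are the genes whose arrays differed most.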
